A study of Mus musculus with 8 samples.

Results

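RNA of 10 genes that encode subunits of the SWI/SNF chromatin remodelling complexes was examined in hearts of Lmna-/- mice. The genes, and the lists used below, were chosen by symbol with earlier results of these data known. Smarca2 and Smarca4 encode the ATPases, and Arid1a, Arid1b and Arid2 the large ARID subunits. Smarcc1, Smarcc2, Smarcb1, Smarce1 and Smarcd3 encode the core and accessory subunits. All 10 symbols matched 1 Ensembl gene each among the 141239 features of the count tables, and all 10 passed the filter on low counts that left 26717 features. The hearts came from mice aged 2 weeks of mixed strain. One group, called untreated, consisted of 3 libraries from Lmna-/- hearts (replicates 6, 7 and 8) whose labels name no vector. The other, called AAV9-LMNA, consisted of 5 libraries (replicates 1 to 5) from Lmna-/- hearts in which wild-type LMNA had been put back with an adeno-associated virus of serotype 9, a vector that reaches heart muscle. Both groups carry the Lmna knockout, so no heart with normal lamin A/C was compared, and without a control vector an effect of LMNA and one of AAV9 cannot be told apart.

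SWI/SNF complexes, called BAF complexes in mammals, use ATP to slide or evict nucleosomes and so open DNA to transcription factors. Every complex holds a single catalytic ATPase, either BRM (gene Smarca2) or BRG1 (gene Smarca4), on a scaffold of SMARCC proteins. The other subunits define the type of complex: canonical BAF holds ARID1A or ARID1B, PBAF holds ARID2 with PBRM1, BRD7 and PHF10, and noncanonical BAF lacks an ARID subunit and holds BICRA or BICRAL with BRD9. In the developing heart BRG1 and the subunit encoded by Smarcd3 are known to act with the cardiac transcription factors GATA4, TBX5 and NKX2-5.

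The libraries held 21439956 to 26492443 counts on features. Lmna itself, the check of the labels, held 46.4, 68.7 and 32.3 CPM (counts scaled to library size) in untreated libraries 6, 7 and 8 and 393, 227, 325, 312 and 747 CPM in AAV9-LMNA replicates 1 to 5, with no overlap (3.03 ± 0.46 SE on the log2 scale, edgeR adjusted p = 0.00486); with untreated replicates 6 and 8 left out the difference was 2.56 and was not called (adjusted p = 0.191). The groups also differed in library measures. Of the reads in features, outside them or ambiguous, those outside all features made up 16.8 to 24.7% in untreated libraries. In AAV9-LMNA libraries they made up 12.1 to 12.8%. Noncoding NONCODE genes held 2.89 to 4.11% of counts in untreated and 2.07 to 2.27% in AAV9-LMNA libraries. The slope of log2 CPM on log2 exon length across coding genes ran from 0.0523 to 0.157 in untreated and from -0.0828 to -0.0473 in AAV9-LMNA libraries, so that long genes were relatively higher in untreated libraries (exact two-sided permutation p = 0.0179 for each measure, the smallest that 56 splits allow, and 0.0238 adjusted over 4 measures). All 10 cardiomyocyte markers were present, at a summed 116000 to 164000 CPM in untreated and 101000 to 123000 CPM in AAV9-LMNA libraries (2 called higher, 1 lower). The summed level of 8 fibroblast markers was 1690 to 7030 against 4560 to 7460 CPM, that of 8 macrophage markers 155 to 641 against 528 to 612 CPM, and none of these 16 markers was called by edgeR at an adjusted p under 0.05. Of 8 endothelial markers 2 were called higher (1130 to 1940 against 1590 to 2000 CPM). Of 6 atrial markers 3 were called lower (80.6 to 1090 against 76.1 to 191 CPM). The untreated libraries thus differed among themselves. Tbx5, a cardiac factor given below, held 81.2, 27.7 and 76.6 CPM in untreated replicates 6, 7 and 8. The fits with untreated replicates 6 and 8 left out keep replicate 7 as the only untreated library. The median log2 fold change (AAV9-LMNA over untreated) was 0.07 over the cardiomyocyte, 0.38 over the fibroblast and 0.83 over the macrophage markers. It was 0.31 over the endothelial markers and -4.91 over the 5 atrial markers tested. The part of cell composition in the results below was not tested, and in these bulk samples fewer cells of a type and less RNA per cell cannot be told apart.

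The SWI/SNF genes did not move as a block. All 3 ARID genes fell in AAV9-LMNA hearts, Arid1a most, to less than its untreated level in every library, while neither ATPase gene passed the test and Smarcd3 was the only core member called, as higher. In counts, 3 of the 10 members were called lower and 1 higher (edgeR quasi-likelihood test, adjusted p under 0.05), and by levels alone 3 lay lower and 1 higher in all AAV9-LMNA than in all untreated libraries, where 16% and 13.8% of features did so. Over all 26717 features the same test called 15% lower and 10.6% higher, and among 13785 coding genes 6.07% lower and 18.4% higher. The share called higher among the members is thus near the background of all features, and the single call in it was also lost under several alternatives given below. Since the members were chosen with earlier results known, these shares are given as a description. The median log2 fold change (AAV9-LMNA over untreated) was 0.11 over the members, -0.03 over all features and 0.21 over coding genes.

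**Figure D1:**
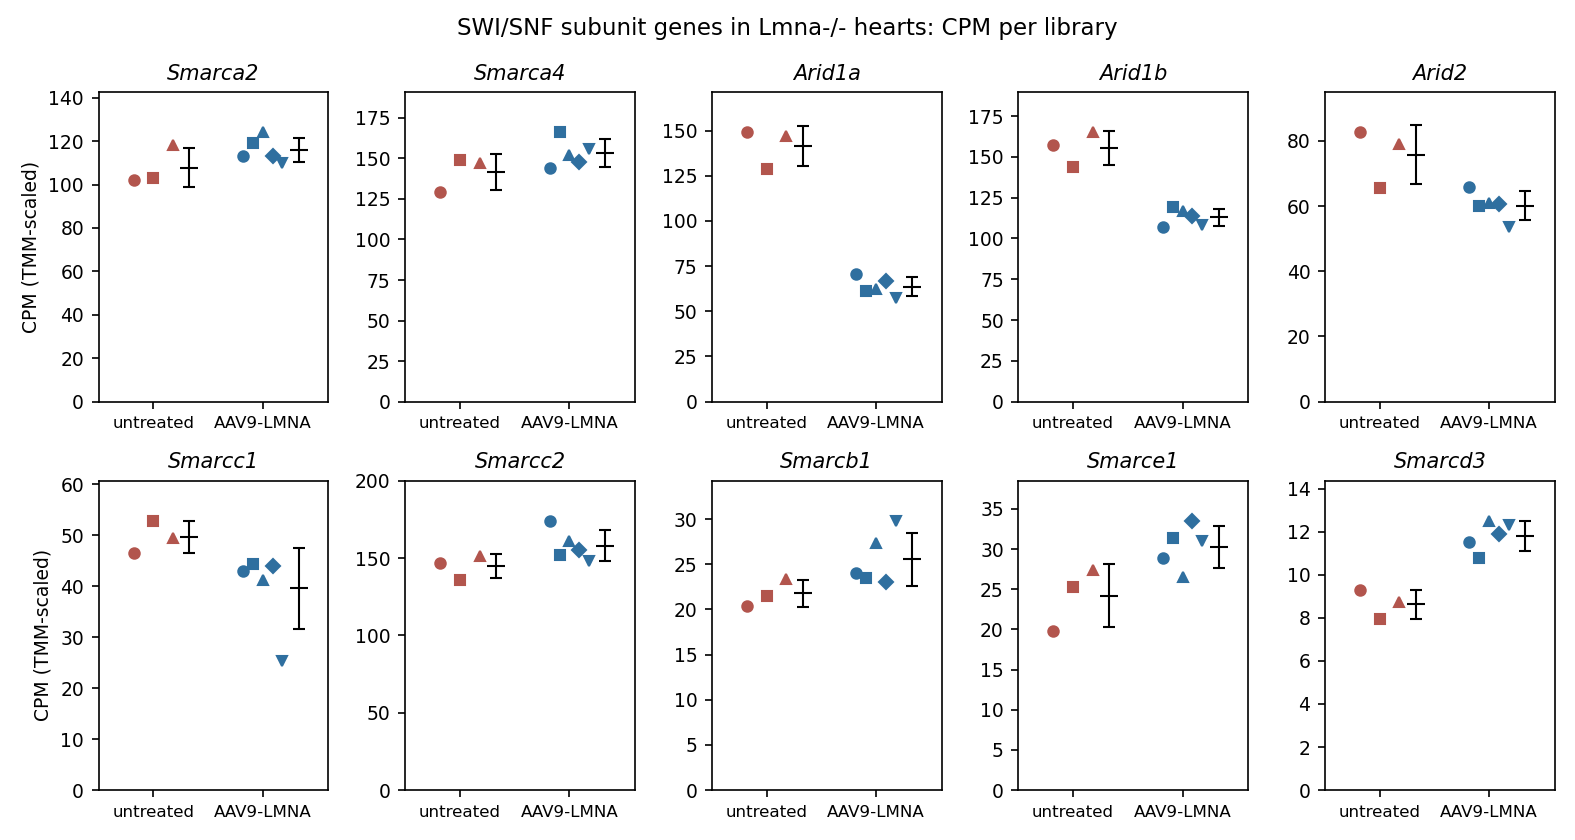
CPM of the 10 SWI/SNF genes (vertical axis, starting at 0, scaled separately for each gene) in the 3 untreated and 5 AAV9-LMNA libraries. Each symbol is a library, the markers follow the order of replicate numbers, and the bar shows the mean and SD; Arid1a lies at 129 to 149 CPM in untreated and at 57.1 to 70.4 CPM in AAV9-LMNA libraries, while the groups overlap for both ATPase genes.

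Arid1a encodes a DNA-binding subunit of canonical BAF that helps bring the complex to enhancers. The gene (ENSMUSG00000007880) lies on GRCm38 chromosome 4, 133679008 to 133756769, minus strand, and shares no exon base with another GENCODE gene. Overlaps with the noncoding NONCODE genes that the count tables also hold were not checked. Untreated replicates 6, 7 and 8 held 149, 129 and 147 CPM, and AAV9-LMNA replicates 1 to 5 held 70.4, 61.4, 62.4, 67.0 and 57.1 CPM. The groups did not overlap, and the lowest untreated value was well above the highest AAV9-LMNA value. The mean went from 142 ± 10.8 CPM (SD, n = 3) to 63.7 ± 5.15 CPM (SD, n = 5), 2.22-fold lower or -1.15 ± 0.10 (SE) on the log2 scale (edgeR adjusted p = 0.00013). By p it ranked 16 among the 26717 features. These values rest on 1261 to 3625 reads per library. The fall was called under all 17 alternatives, with log2 fold changes from -1.36 to -1.01.

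Arid1b encodes the paralog that can take the place of ARID1A in canonical BAF. It lies on chromosome 17, 4994332 to 5347656, plus strand (ENSMUSG00000069729). It held 157, 144 and 165 CPM in untreated libraries 6, 7 and 8 and 107, 119, 117, 114 and 108 CPM in AAV9-LMNA replicates 1 to 5. Again the groups did not overlap, but the distance between them was smaller than for Arid1a. On the log2 scale the difference was -0.46 ± 0.08 (SE, edgeR adjusted p = 0.00538), a mean of 156 ± 10.6 CPM (SD, n = 3) against 113 ± 5.16 CPM (SD, n = 5). This call held under 16 of 17 alternatives and was lost with untreated replicates 6 and 8 both left out (-0.34, adjusted p = 0.0581).

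Arid2 encodes the ARID subunit of PBAF and lies on chromosome 15, 96287518 to 96404992, plus strand (ENSMUSG00000033237). Its values were 82.6, 65.6 and 79.1 CPM in untreated libraries 6, 7 and 8 and 65.7, 60.1, 61.0, 60.5 and 53.5 CPM in AAV9-LMNA replicates 1 to 5. Here untreated replicate 7 lay level with AAV9-LMNA replicate 1, so the groups just overlapped. At -0.33 ± 0.10 (SE, log2 scale) it passed narrowly (edgeR adjusted p = 0.0374). The call held under 7 of 17 alternatives. It was lost without untreated replicate 6 (-0.25, adjusted p = 0.117) or 8 (-0.29, 0.107), without AAV9-LMNA replicate 2, 3, 4 or 5 (-0.35 to -0.30), without any filter (-0.29), with either length and GC correction (-0.31 and -0.21), and with untreated replicates 6 and 8 both left out (-0.11, adjusted p = 0.616).

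The levels of both ATPase genes overlapped between the groups. Smarca4 (ENSMUSG00000032187, chromosome 9, 21616169 to 21704230, plus strand), the gene of BRG1, held 129, 149 and 147 CPM in untreated libraries 6, 7 and 8 and 144, 166, 152, 148 and 156 CPM in AAV9-LMNA replicates 1 to 5. On the log2 scale it differed by 0.11, with a 95% interval of -0.09 to 0.30 (edgeR adjusted p = 0.376). Smarca2 (ENSMUSG00000024921, chromosome 19, 26605050 to 26778322, plus strand), the gene of BRM, held 102, 103 and 118 CPM against 113, 119, 124, 113 and 110 CPM. Its log2 fold change was also 0.11, with a 95% interval of -0.09 to 0.30 (edgeR adjusted p = 0.387). Both intervals exclude a fall of the size seen in Arid1a or Arid1b, for which the intervals were -1.36 to -0.94 and -0.65 to -0.28. Neither gene was called under any of the 17 alternatives, and with Ensembl features scaled alone both log2 fold changes turned to -0.09. Smarca2 and Smarca4 are paralogs, and reads with more than 1 alignment were not counted for any gene.

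The upstream sequences of Arid1a, the member with the largest fall, and of Smarca4, a long member that was not called, are shown to set the start regions of both side by side. They are RefSeq promoter entries on GRCm38.p6, cut to the 250 bases before the first transcribed base and read on the gene's strand, Arid1a at chr4:133756770-133757019 (minus strand) and Smarca4 at chr9:21615919-21616168 (plus strand). Capitals mark GC boxes, that is GGGCGG or its reverse complement CCGCCC, the motif bound by Sp family factors; no other motif was searched.
Arid1a: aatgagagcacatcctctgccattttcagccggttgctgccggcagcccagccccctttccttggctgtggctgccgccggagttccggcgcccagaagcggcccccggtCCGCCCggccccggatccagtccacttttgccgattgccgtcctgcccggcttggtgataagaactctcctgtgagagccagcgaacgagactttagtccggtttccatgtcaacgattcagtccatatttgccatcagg
Smarca4: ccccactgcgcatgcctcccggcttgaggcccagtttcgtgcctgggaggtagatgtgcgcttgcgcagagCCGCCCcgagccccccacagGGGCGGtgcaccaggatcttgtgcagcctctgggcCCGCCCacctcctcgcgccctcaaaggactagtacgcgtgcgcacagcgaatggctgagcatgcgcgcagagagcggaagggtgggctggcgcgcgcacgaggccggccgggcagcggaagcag
The Arid1a window holds 1 GC box and 18 CG dinucleotides with a GC content of 61.2%, and the Smarca4 window 3 GC boxes and 25 CG dinucleotides with 70.8%. A GC box occurs in 32.7% of the 32851 RefSeq windows of the same length, whose median is 6 CG dinucleotides, so both windows are rich in CG. Arid1a has a further RefSeq start inside the gene, where no GENCODE transcript starts, and its window (chr4:133753986-133754235, not shown) holds 7 GC boxes and 33 CG dinucleotides with 81.6% GC, more than the Smarca4 window. Of the 10 members 8 had a promoter entry.

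Smarcc1 and Smarcc2 encode the scaffold on which the complexes are built. Smarcc2 (ENSMUSG00000025369, chromosome 10, 128459248 to 128490482, plus strand) held 147, 136 and 151 CPM in untreated libraries 6, 7 and 8 and 174, 152, 161, 155 and 148 CPM in AAV9-LMNA replicates 1 to 5, and was not called (log2 fold change 0.13, standard error 0.09, edgeR adjusted p = 0.296). Its paralog Smarcc1 (ENSMUSG00000032481, chromosome 9, 110117708 to 110240178, plus strand) held 46.6, 52.8 and 49.5 CPM against 42.9, 44.4, 41.2, 43.9 and 25.4 CPM. Every AAV9-LMNA library lay below every untreated library, yet 4 of them lay close below and replicate 5 far below. With that spread the log2 fold change of -0.33 (standard error 0.16) did not pass (edgeR adjusted p = 0.156), nor did it without replicate 5 (-0.21, the smallest value with any 1 library left out).

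Smarcb1 encodes SNF5, a core subunit that binds the nucleosome acidic patch, and lies on chromosome 10, 75896769 to 75921617, minus strand (ENSMUSG00000000902). It held 20.4, 21.5 and 23.4 CPM in untreated libraries 6, 7 and 8 and 24.0, 23.5, 27.4, 23.0 and 29.8 CPM in AAV9-LMNA replicates 1 to 5. The groups touched, and the log2 fold change of 0.23 (standard error 0.12) was not called (edgeR adjusted p = 0.166). Smarce1 encodes BAF57, an HMG-box subunit, and lies on chromosome 11, 99209047 to 99231017, minus strand (ENSMUSG00000037935). It held 19.8, 25.3 and 27.4 CPM against 28.9, 31.4, 26.5, 33.5 and 31.0 CPM, with overlap through untreated replicate 8 and AAV9-LMNA replicate 3. Its log2 fold change was 0.32 (standard error 0.13, edgeR adjusted p = 0.0817).

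Smarcd3 encodes the BAF60 variant of heart and skeletal muscle and lies on chromosome 5, 24590818 to 24624411, minus strand (ENSMUSG00000028949). Untreated replicates 6, 7 and 8 held 9.27, 7.93 and 8.72 CPM and AAV9-LMNA replicates 1 to 5 held 11.5, 10.8, 12.5, 11.9 and 12.3 CPM, without overlap. The rise was 0.45 ± 0.13 (SE) on the log2 scale (edgeR adjusted p = 0.0284), on 186 to 284 reads per library. Of its annotated exon bases 48.16% are shared with Chpf2 or Mir671 on the other strand, and a read that overlaps 2 features is not counted for either, so its count is uncertain. Beside the rise, 8 genes listed as skeletal muscle markers had a summed level of 1380 to 1640 CPM in untreated libraries. In AAV9-LMNA libraries the sum was 2080 to 2790 CPM, without overlap. Of the 4 tested 1 was called higher, and Myh4, Mylpf and Actn3 stayed under 1 CPM in all libraries. The list also holds Acta1, Ckm, Myh1, Myh2 and Tnnt3, and the sum was not split by gene. It cannot tell skeletal from heart muscle, and the part of these genes in the rise was not tested. The call held under 7 of 17 alternatives. It was lost with Ensembl features alone (0.24), with either length and GC correction (0.27 and 0.08), without a filter (0.49), without untreated replicate 8 (0.46), without AAV9-LMNA replicate 2, 3, 4 or 5 (0.42 to 0.47), and with untreated replicates 6 and 8 both left out (0.58, adjusted p = 0.0634).

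Levels of different genes were compared per kilobase of the APPRIS principal transcript, as RPKM. In untreated hearts Smarcc2 was highest at 35.9 ± 1.83 RPKM (SD, n = 3). Smarca4 at 22.3 ± 1.72, Arid1b at 21.3 ± 1.45, Smarca2 at 18.3 ± 1.57 and Arid1a at 17.3 ± 1.32 RPKM followed, where Smarca4 and Arid1b, and likewise Smarca2 and Arid1a, differed by less than their SDs. Smarcb1 stood at 13.4 ± 0.933 RPKM. Arid2 at 8.90 ± 1.06, Smarcc1 at 8.60 ± 0.545 and Smarce1 at 8.28 ± 1.34 RPKM could not be ranked against their spread. Smarcd3 had the lowest value at 4.98 ± 0.387 RPKM. Reads that also overlapped Chpf2 or Mir671 were not counted for Smarcd3, so its level may be understated and its rank is uncertain. In AAV9-LMNA hearts Smarcc2 was again highest (39.2 ± 2.56 RPKM, SD, n = 5), Smarca4 stood at 24.0 ± 1.32 and Smarca2 at 19.7 ± 0.962 RPKM. Arid1a stood at 7.77 ± 0.629 RPKM there, beside Arid2 (7.07 ± 0.513), Smarcc1 (6.85 ± 1.39) and Smarcd3 (6.79 ± 0.399 RPKM), and Smarce1 at 10.4 ± 0.916 RPKM lay above it. Arid1a thus stood near Smarca2 in untreated hearts and near Arid2 and Smarcc1 in AAV9-LMNA hearts.

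Ratios inside a library do not depend on a factor applied to the whole library. A correction for length or GC content differs between genes and can change them, and the length trend between the groups remains in them. The ratios share the gene values above and are given as a description, with no test. The ratio of Arid1a to Smarca4 (RPKM) was 0.895, 0.673 and 0.778 in untreated replicates 6, 7 and 8 and 0.379, 0.288, 0.321, 0.353 and 0.286 in AAV9-LMNA replicates 1 to 5. Of the summed RPKM of the 3 ARID genes, Arid1a held 36.0 to 36.7% in untreated and 24.3 to 27.8% in AAV9-LMNA libraries. Arid1b held 43.6 to 45.6% and 47.3 to 52.7%, and Arid2 17.8 to 19.6% and 22.4 to 24.9%. The Arid1a share was lower and the other shares were higher in all AAV9-LMNA libraries, and the groups did not overlap in any of the 3 shares. The ratio of Smarca4 to Smarca2 was 1.14 to 1.34 in untreated and 1.13 to 1.30 in AAV9-LMNA libraries, fully overlapping. The ratio of Smarcc2 to Smarcc1 was 3.70 to 4.51 against 4.92 to 8.33, with the highest value in AAV9-LMNA replicate 5.

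**Figure D2:**
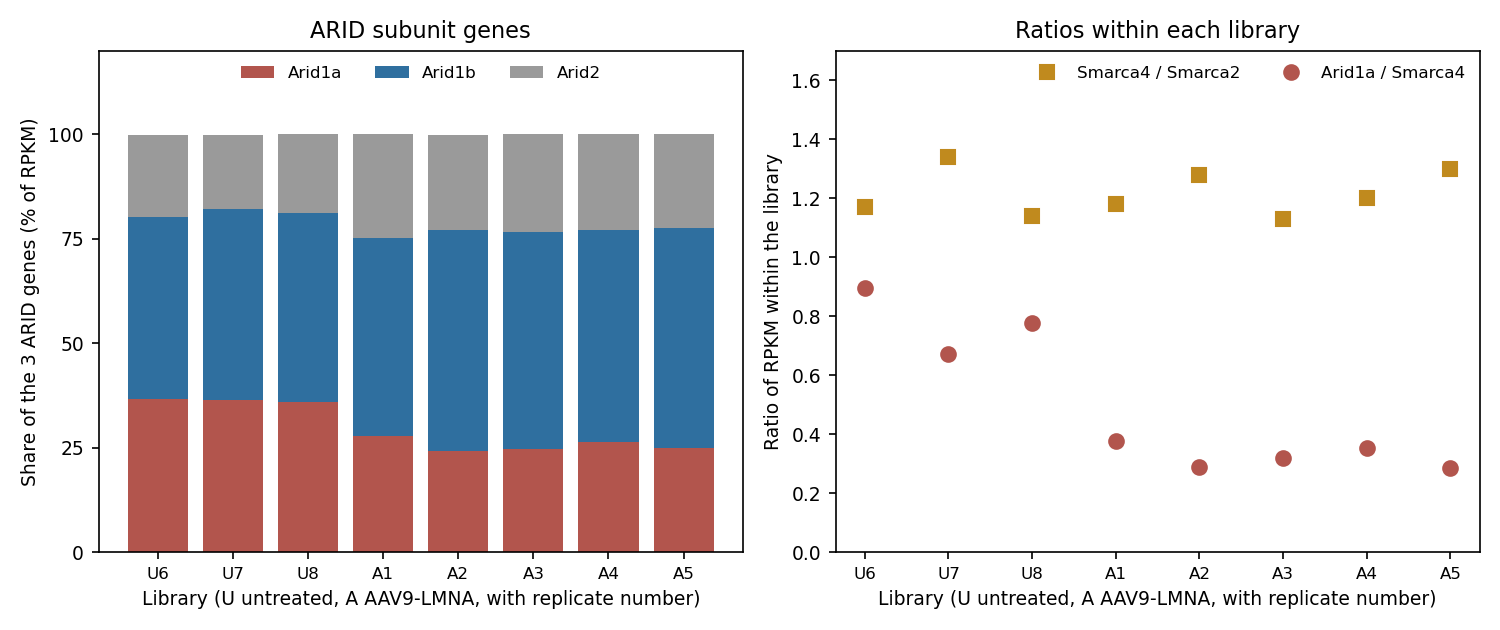
Left, share of each ARID gene in the summed RPKM of Arid1a, Arid1b and Arid2 per library (stacked bars, percent); right, RPKM ratios within each library, with U for untreated and A for AAV9-LMNA libraries. The Arid1a share is 36.0 to 36.7% in untreated and 24.3 to 27.8% in AAV9-LMNA libraries, and the ratio of Smarca4 to Smarca2 overlaps between the groups.

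The long members were next set against the short ones, by the length of the principal transcript. By total exon length the split is less clear. There Smarcb1 (7.93 kb), Smarcc1 (7.83 kb) and Smarce1 (6.65 kb) are longer than Smarca4 (6.47 kb). The principal transcripts of the ARID and ATPase genes measure 5.86 kb (Smarca2) to 8.51 kb (Arid2), with coding sequences of 4.80 to 6.89 kb. Those of the core genes measure 1.62 kb (Smarcb1) to 5.77 kb (Smarcc1), with coding sequences of 1.13 to 3.64 kb. The median log2 fold change was -0.33 over the 5 ARID and ATPase genes, of which 3 were called lower, and 0.23 over the 5 core genes, of which 1 was called higher. The ARID genes, at 7.31 to 8.51 kb, ran from -1.15 to -0.33, and both ATPase genes, which are shorter at 5.86 and 6.38 kb, stood at 0.11. Smarcc1, the longest core gene by principal transcript, stood at -0.33.

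All coding genes showed a trend with length, against which the members can be read. When 11600 coding genes with a mean log2 CPM above 1 were divided into 10 classes by principal transcript length, the median log2 fold change was 0.43 in the shortest class and -0.11 in the longest. In the longest class, 6.49 kb and above, which holds the 3 ARID genes, 22.8% were called lower and 3.02% higher, where 3 of 3 members were called lower, and the 5th to 95th percentile ran from -0.86 to 0.42. Arid1b and Arid2 lay inside that range and Arid1a below it. In the class from 4.95 to 6.49 kb, which holds Smarca2, Smarca4 and Smarcc1, the median was 0.05, 10.9% were called lower and 9.06% higher, none of the 3 members was called, and the range of -0.72 to 0.61 contained all 3 genes. Smarcb1 (0.23) and Smarcd3 (0.45) belonged to a class with a median of 0.36, Smarce1 (0.32) to one with a median of 0.25 and Smarcc2 (0.13) to one with a median of 0.18. All 5 core members lay inside the 5th to 95th percentile of their class.

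**Figure D3:**
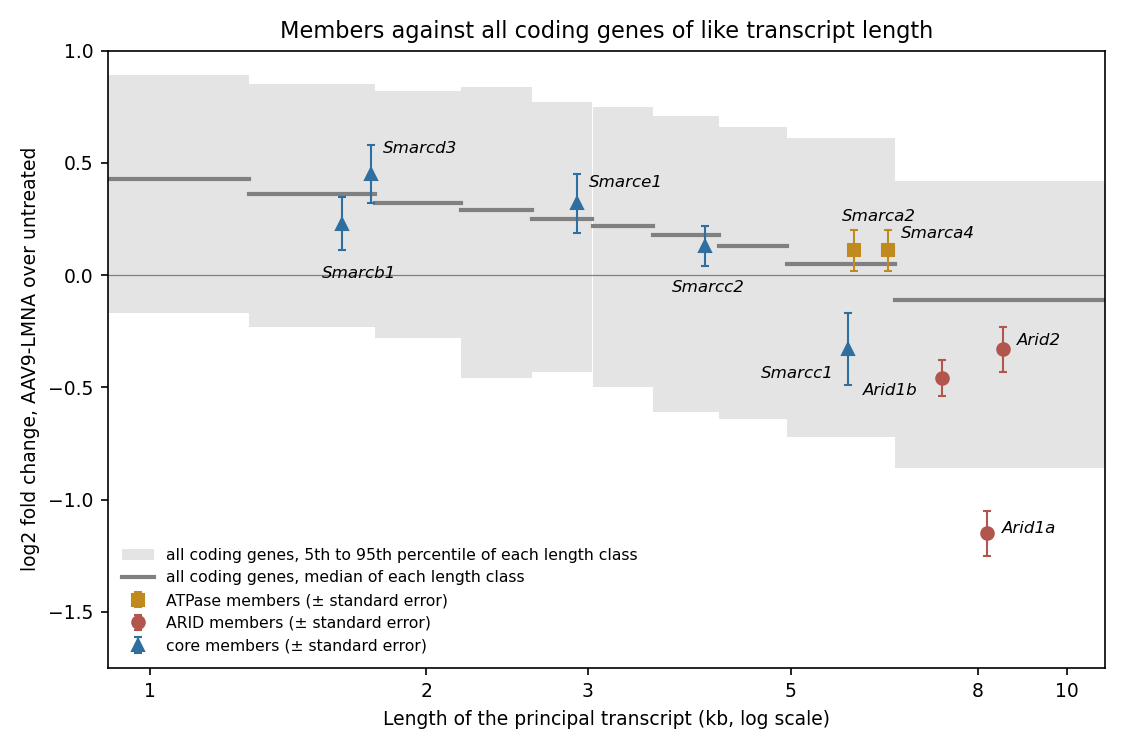
Log2 fold change (AAV9-LMNA over untreated, vertical axis) against the length of the principal transcript (kb, log scale) for the 10 members, with standard errors, over the medians (grey lines) and the 5th to 95th percentiles (grey bands) of 10 length classes of coding genes. Arid1a lies below the band of the longest class, whose lower edge is -0.86, and the other 9 members lie inside the band of their class.

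The scaling of the libraries moved several calls. With Ensembl features scaled and tested without NONCODE features, a catalogue of noncoding transcripts that the tables also hold, the median feature shifted by -0.19. Then 3 members were called lower (Arid1a at -1.36, Arid1b at -0.66, Arid2 at -0.54) and 0 higher, where 8.57% of 15256 features were called lower and 4.33% higher. By edgeR 4 members had an unadjusted p under 0.05 in that fit, while DESeq2 and limma-voom, run on all features, each called 3 lower and 1 higher. After each library was also corrected for exon length and GC content, 2 members were called lower, Arid1a (-1.07, edgeR adjusted p = 0.000196) and Arid1b (-0.36, adjusted p = 0.0191), and 0 higher, where 6.30% of 15248 features were called lower and 2.47% higher; 6 members had an unadjusted p under 0.05. With the length of the principal transcript in that correction, an alternative chosen after seeing the data, the same genes were called (Arid1a -1.04, Arid1b -0.40), against a background of 6.34% lower and 2.35% higher. With untreated replicates 6 and 8 left out, only Arid1a of the 10 was called (-1.01, adjusted p = 0.000155), where 3.36% of 29873 features were called lower and 3.81% higher. Smarca2 stood at 0.24 and 0.08 in the 2 corrections and Smarca4 at -0.00081 and 0.12, all uncalled.

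**Figure D4:**
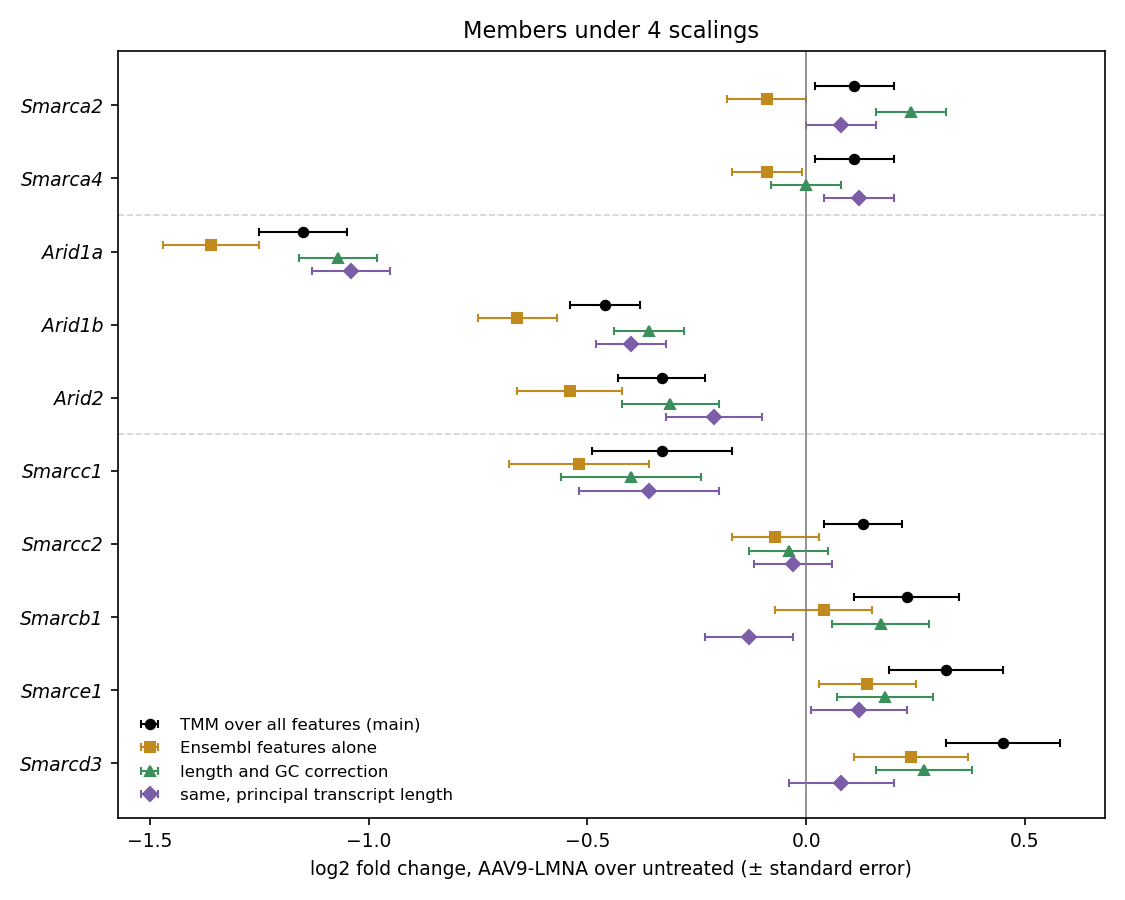
Log2 fold change of each member with its standard error (horizontal axis) under 4 scalings: TMM over all features, TMM over Ensembl features alone, and the correction for length and GC content with the exon length or the principal transcript length. Arid1a stays between -1.36 and -1.04, and Smarcd3 moves from 0.45 to as low as 0.08.

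The other subunits of the complexes were taken from a list of 20 genes. Of these 18 passed the filter, 5 rose (27.8%), 2 fell (11.1%) and 11 did not pass, and the median on the log2 scale was 0.25. Over all features 10.6% were called higher and 15% lower. Among coding genes 18.4% were called higher and 6.07% lower, around a median of 0.21. Actl6b and Dpf1, subunits known from neurons, did not pass and stayed at or below 0.363 CPM in all libraries. The scaffold genes of noncanonical BAF fell. Bicra held 25.4, 17.9 and 26.4 CPM in untreated libraries 6, 7 and 8 and 9.11, 8.71, 9.58, 8.46 and 9.96 CPM in AAV9-LMNA replicates 1 to 5, without overlap. Its log2 fold change of -1.34 (standard error 0.14, edgeR adjusted p = 0.000587) was called under all 17 alternatives, between -1.55 and -0.95. Bicral, its paralog, fell by 0.48 on the log2 scale (edgeR adjusted p = 0.0236) and kept the call under 10 of 17 alternatives. It was lost without untreated replicate 6 or 8 or AAV9-LMNA replicate 2, 3 or 4 (-0.48 to -0.40), with the correction by principal transcript length (-0.46, adjusted p = 0.059) and with untreated replicates 6 and 8 both left out (-0.26, adjusted p = 0.38). Brd9, the bromodomain partner of BICRA, went the other way, from 20.3 to 23.0 CPM in untreated to 26.3 to 38.7 CPM in AAV9-LMNA libraries (log2 fold change 0.66, standard error 0.15, edgeR adjusted p = 0.0119).

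More of the named subunit genes rose. Actl6a, an actin-related subunit, had a log2 fold change of 0.51 (standard error 0.13, edgeR adjusted p = 0.0169), and Smarcd2, a paralog of Smarcd3, one of 0.42 (standard error 0.12, adjusted p = 0.026). Bcl11b, a zinc finger subunit known from lymphocytes and neurons, rose from 1.07 to 2.13 CPM to 2.94 to 5.16 CPM (log2 fold change 1.18, standard error 0.29, adjusted p = 0.0165). Beside it, 8 lymphocyte markers had a summed level of 1.39 to 5.33 CPM in untreated and 4.09 to 9.87 CPM in AAV9-LMNA libraries, 1 of the 5 tested was called higher, and Cd3g, Cd79a, Ms4a1 and Nkg7 stayed under 1 CPM in all libraries; their part in the rise was not tested. Actl6a, Brd9 and Smarcd2 lost their calls with Ensembl features alone (0.32, 0.45 and 0.23) and with either length and GC correction, and Smarcd2 also without untreated replicate 6 or AAV9-LMNA replicate 2, 3 or 5. Bcl11b, on 26 to 114 reads per library, lost its call with the correction by principal transcript length (0.96, edgeR adjusted p = 0.0603). With untreated replicates 6 and 8 both left out, Actl6a was at 0.32, Brd9 at 0.76, Smarcd2 at 0.39 and Bcl11b at 0.88. The PBAF partners of ARID2 did not pass in edgeR with all features. Pbrm1 held 109, 121 and 113 CPM against 102 to 107 CPM (-0.13, adjusted p = 0.232) and was called lower with Ensembl features alone (-0.33, adjusted p = 0.0188). Brd7 held 67.8 to 83.3 against 86.2 to 98.4 CPM (0.27, adjusted p = 0.0627) and was called higher by DESeq2 (0.29, adjusted p = 0.0371), with RLE size factors (0.29, 0.048) and without untreated replicate 7 (0.35, 0.0201). Phf10, named here after its values were seen, held 36.1 to 40.6 against 44.5 to 45.5 CPM (0.24, edgeR adjusted p = 0.0577) and was called higher by DESeq2 (0.27, adjusted p = 0.017). The count of 5 higher was 9 with DESeq2 or RLE size factors, 1 with Ensembl features alone and 0 with the correction by principal transcript length.

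Other remodeller ATPases of the SNF2 family were examined beside Smarca2 and Smarca4. Of 25 genes, all tested, 2 rose, 6 fell and 17 did not pass, around a median of -0.10, that is 8.0% higher and 24.0% lower. Beside this, 10.6% of all features were called higher and 15% lower. Of all coding genes 18.4% were called higher and 6.07% lower, and of the longest class of coding genes 3.02% higher and 22.8% lower. Ep400, an ATPase of the TIP60 complex, went from 106, 119 and 119 CPM to 85.9, 86.1, 83.7, 81.7 and 81.7 CPM (log2 fold change -0.46, standard error 0.08, edgeR adjusted p = 0.0049). Chd7 and Chd8, chromodomain remodellers, had log2 fold changes of -0.43 and -0.38 (edgeR adjusted p = 0.00912 and 0.0172). Both lost their calls with either length and GC correction (-0.30 and -0.23 for Chd7, -0.20 and -0.26 for Chd8). Chd8 also lost its call without untreated replicate 8 (-0.31, edgeR adjusted p = 0.0654). With untreated replicates 6 and 8 both left out Chd7 stood at -0.26 and Chd8 at -0.17. Ttf2, a transcription termination factor, rose by 0.87 (edgeR adjusted p = 0.0232) and lost its call without untreated replicate 8 or AAV9-LMNA replicate 2, 3 or 4. The call was also lost with Ensembl features alone (0.69) and with either length and GC correction (0.80 and 0.76). With untreated replicates 6 and 8 both left out Ttf2 stood at 0.48. With the length and GC correction 1 of the 25 was called lower, Ep400 (-0.32, edgeR adjusted p = 0.0209), and 1 higher, Atrx (0.31, adjusted p = 0.0394). Atrx, named here after its values were seen, was not called in the main fit (0.06, edgeR adjusted p = 0.624). With the principal transcript length 0 were called lower and 0 higher by edgeR, with 9 at an unadjusted p under 0.05.

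**Figure D5:**
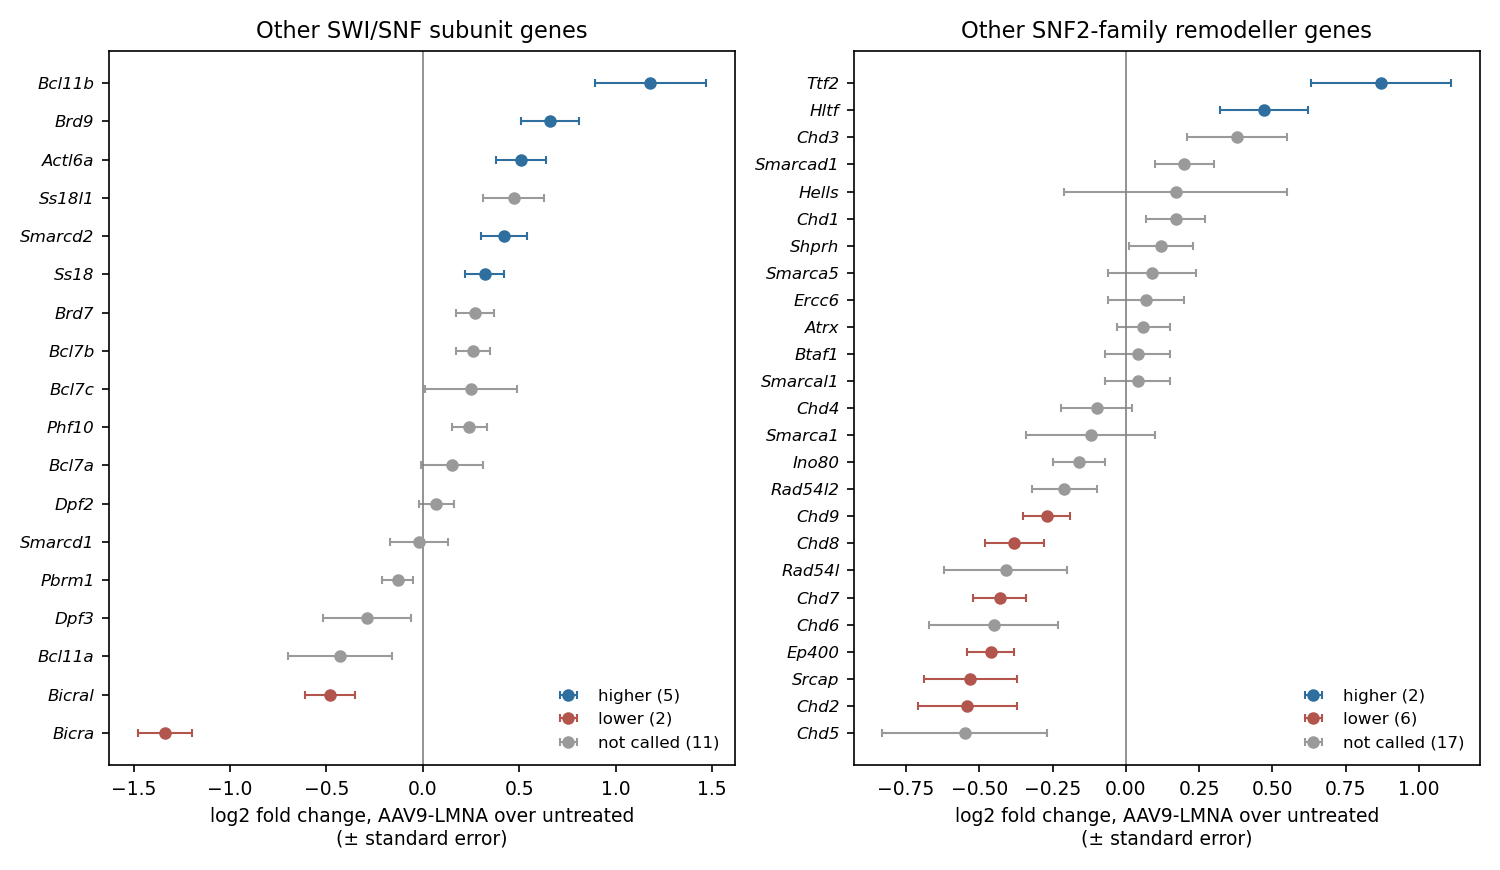
Log2 fold change (AAV9-LMNA over untreated) with standard error for 18 other SWI/SNF subunit genes and 25 other SNF2-family remodeller genes, coloured by the edgeR call. Bicra has the largest fall among the subunits at -1.34, and 6 remodeller genes are called lower against 2 higher.

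Partners and known targets of SWI/SNF in the heart formed a list of 8 genes, of which edgeR called 2 higher, 0 lower and 6 not, that is 25% higher beside 10.6% of all features and 18.4% of coding genes. At an unadjusted p under 0.05 there were 4 of the 8, and DESeq2 called 3 higher and 1 lower. Parp1, whose product acts with BRG1 in the hypertrophic heart, rose by 0.62 (standard error 0.16, edgeR adjusted p = 0.0211). Hdac2, a histone deacetylase of the same setting, rose by 0.41 (adjusted p = 0.0452), a call lost without any 1 of untreated replicate 6 and AAV9-LMNA replicates 1 to 5. Both calls were lost with Ensembl features alone (0.44 and 0.22) and with the length and GC corrections. Hdac9 had a log2 fold change of 0.40 (adjusted p = 0.0582) and was called higher by DESeq2 (0.42, adjusted p = 0.0423), with RLE size factors, with no filter, with the length and GC correction (0.53) and without untreated replicate 8 (0.56). The cardiac factors Gata4 (-0.02, adjusted p = 0.90), Nkx2-5 (0.02, 0.937) and Tbx5 (-0.55, 0.194) did not pass. Neither myosin heavy chain gene passed in edgeR with all libraries: Myh6, the adult form, had -0.09 (standard error 0.20, adjusted p = 0.766) and Myh7, the fetal form, -0.98 (standard error 0.42, adjusted p = 0.121). Myh7 was called lower by DESeq2 (-0.95, adjusted p = 0.0405) and by edgeR without AAV9-LMNA replicate 1 (-1.31, adjusted p = 0.0266).

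For 3 members the genes with the most similar pattern over the 8 libraries were looked up among 11385 other coding genes, by Pearson r of log2 CPM. These r values describe 8 libraries that share the group difference and the length trend. For Arid1a, added after its values were seen, the closest included Usp34 (r = 0.996) and Setd1b (0.996), with log2 fold changes of -0.82 and -1.66. For Smarca4 they were Vma21 (0.979), Snai2 (0.977) and Sept9 (0.970), and for Smarca2 Abl1 (0.954), Rbsn (0.951) and Colec11 (0.936).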

How the data were processed

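RNA of Lmna-/- mouse hearts was sequenced in 3 untreated and 5 AAV9-LMNA libraries. The authors deposited raw counts of reads per gene, 1 table per library, counted without strand over 53465 Ensembl and 87774 NONCODE version 5 genes, per the names of the deposited tables and their identifiers; TopHat2, limma, edgeR and HTSeq and the builds GRCm38 and mm10 are listed in the submitters' processing notes, without versions or roles. The 5 summary lines of each table entered neither totals nor fits. Reads outside features and ambiguous reads made up 12.1 to 24.7% and 21.0 to 26.4% of the reads in features, outside them or ambiguous. Symbols, coordinates and lengths came from GENCODE M21 (GRCm38), which matched 53360 Ensembl identifiers; overlaps with NONCODE genes were not checked. Where no label says that libraries come from separate animals, p-values measure only the spread between these libraries.

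From the counts, edgeR 4.0.16 (R 4.3.3) was run with filterByExpr, TMM over all features, robust quasi-likelihood fits with group as the only term, and Benjamini-Hochberg adjustment over 26717 features at 0.05. Standard errors were derived from the quasi-likelihood F statistic and 95% intervals from its t distribution. CPM used TMM library sizes, and RPKM divided CPM by the APPRIS principal transcript length. Library measures were tested by exact permutation. The script was tested on simulated data. Named genes were all 10 members, up to 6 called and 2 uncalled other subunits, up to 4 called remodellers, all 8 heart partners, and 3 genes most alike for each ATPase gene. Alternatives were RLE, DESeq2 1.42.0, limma-voom (limma 3.58.1), no filter, 1 CPM in 3 libraries, Ensembl features alone, loess corrections for length and GC content (span 0.5), and libraries left out. The members and lists were chosen with earlier results of these data known.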

Additional observations from a re-analysis of the deposited data

Results flagged for a closer look

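Smarcc1 in AAV9-LMNA replicate 5 stood apart from its group, at 25.4 CPM where the other 4 libraries held 41.2 to 44.4 CPM. Its gap to the nearest library was 0.834 of the range of the group, above the limit of 0.71 for 5 libraries. Groups of 5 were examined for 34 genes and library measures and 1 was flagged; chance flags about 1 in 20.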

How the results depend on the processing

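Arid1a and Bicra kept direction and call under all 17 alternatives. No paired analysis was possible because the groups share no replicate number. With untreated replicates 6 and 8 both left out, a fit in which the lone untreated library is assumed to vary like the other group, 1 member was called lower and 0 higher, 0 other subunits higher and 1 lower, 0 other remodellers higher and 1 lower, and 1139 features higher and 1004 lower; the median of the ARID and ATPase members was -0.11. With Ensembl features alone 0 members, 1 other subunit and 0 remodellers were higher, 660 features were higher and 1307 lower, and the medians were -0.54 (ARID and ATPase) and 0.04 (core). The length and GC correction gave 0 members, 1 other subunit and 1 remodeller higher, 1 remodeller lower, and 377 features higher and 961 lower. With principal transcript length it gave 0 members, 0 other subunits and 0 remodellers higher, 1 other subunit and 0 remodellers lower, 359 features higher and 966 lower, and medians of -0.21 and -0.03. DESeq2 and RLE size factors each gave 9 other subunits higher, no filter 0 members higher, and the 1 CPM minimum 1 remodeller higher. The causes were not tested.

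Leaving out each library in turn gave 0 to 1 members higher and 2 to 3 lower, 3 to 8 other subunits higher and 1 to 4 lower, 0 to 3 remodellers higher and 3 to 7 lower, and 1528 (without AAV9-LMNA replicate 3) to 4773 (without untreated replicate 7) features higher and 2207 (without untreated replicate 6) to 5260 (without untreated replicate 7) lower. Signs turned in uncalled genes, with 1 call among the turned values (Tbx5). With Ensembl features alone Smarca2 and Smarca4 were at -0.09, Smarcc2 at -0.07 and Nkx2-5 at -0.20. With the length and GC correction Smarca4 was at -0.00081, Smarcc2 at -0.04 and Nkx2-5 at -0.42, and with principal transcript length Smarcc2 was at -0.03, Smarcb1 at -0.13 and Nkx2-5 at -0.41. Gata4 was at 0.0021 with DESeq2, 0.002 with RLE size factors, 0.02 with no filter and 0.06 without untreated replicates 6 and 8, where Myh6 was at 0.54 and Tbx5 at 0.62, the latter called (edgeR adjusted p = 0.0436, from 0.000893 to 0.613 over its alternatives). Tbx5 was also called, as lower, without untreated replicate 7 (-0.89), and Nkx2-5, as higher, without untreated replicate 6 (0.40). Nkx2-5 was at -0.03 with the 1 CPM minimum. With single libraries left out, Gata4 ranged from -0.11 to 0.13, Myh6 from -0.30 to 0.16 and Nkx2-5 from -0.16 to 0.40. Among gene values under alternatives, 397 kept direction and call, 77 lost the call, 13 gained it and 23 turned.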
